A study of Mus musculus with 103 samples.

Results

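The 10 genes described here are markers and regulators of newly formed neurons: Tubb3, Dcx, Stmn2, Elavl3, Elavl4, Isl1, Isl2, Pou4f1, Nhlh1 and Nhlh2. They were chosen by name, as genes of neuronal differentiation, and found by their symbol in the annotation of the array. All 10 of 10 were measured, each by 1 probe set that lists that symbol alone, among 19946 genes in all. The probe sets are 10576332 for Tubb3, 10607156 for Dcx, 10490818 for Stmn2, 10591706 for Elavl3, 10515095 for Elavl4, 10412335 for Isl1, 10585535 for Isl2, 10422179 for Pou4f1, 10360202 for Nhlh1 and 10494795 for Nhlh2.

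Tissue came from outbred CD1 mouse embryos with no mutation or treatment named in the labels. The 3 stages, named by embryonic day, ran from E8.5 through E9.5 to E10.5. Regions of the head were cut from frozen sections by laser capture, and the amplified RNA of each sample was read on 1 whole-transcript array. The labels give 22 groups of 4 to 7 libraries. One further E9.5 sample, whose labels name different tissues, entered no comparison.

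At E8.5 the 4 groups (18 libraries) were the neural epithelium of the floor plate, the neural epithelium outside it, the caudal neural epithelium and the mesenchyme of the head. At E9.5 the 6 groups (34 libraries) were neuroepithelium, cranial mesenchyme, epidermal ectoderm, otic vesicle, and the mandibular and maxillary arches. At E10.5 the 12 groups (50 libraries) included neuroepithelium from 4 sites: the midline, below the lateral and below the medial nasal prominence, and a control site away from the facial prominences. The other 8 were the lateral nasal eminence, the medial nasal prominence, the mandibular and maxillary arches, the epidermal ectoderm of each arch, the olfactory pit and Rathke's pouch, the pouch of oral ectoderm that forms the anterior pituitary. For 4 libraries of neuroepithelium the title names the lateral prominence and the other labels the medial one, and they were counted as medial. The labels do not tie libraries to embryos, so some may share an embryo, and p-values over libraries may then be too small. Cells of a captured region are mixed, so fewer neurons in a region and less RNA per neuron cannot be told apart.

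The deposited values are ratios to a baseline of the authors, and are given here as log2 ratios, so that 1 is 2-fold above that baseline. They compare libraries for 1 gene and say nothing of which gene is more abundant. Over all probe sets the SD of the log2 ratio was 0.39 to 1.33 per array, and was over 0.85 in 11 arrays, which are called widely spread below. No array was assessed for whether a gene was detected, and the number of arrays limits the precision. Lists of marker genes for the labelled tissues were at odds with 2 labels. The 4 libraries labelled E10.5 mandibular arch epidermal ectoderm had mean log2 ratios of 0.94 to 1.26 over 10 mesenchyme genes and of -0.40 to 0.07 over 10 surface ectoderm genes. The 5 libraries labelled E10.5 maxillary arch had -0.55 to 2.51 over the surface ectoderm genes and 0.13 to 1.04 over the mesenchyme genes. Both groups are named below as libraries labelled so.

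Neurons form where progenitors of the neural epithelium, or of placodes in the surface ectoderm, leave the cell cycle under the control of proneural transcription factors of the basic helix-loop-helix class. The young neuron then makes neuron-specific cytoskeleton, among it Tubb3 (class III beta-tubulin), Dcx (doublecortin, which binds microtubules) and Stmn2 (a stathmin that regulates microtubules in growing axons), and the neuronal RNA-binding proteins Elavl3 and Elavl4. Isl1 and Isl2 are LIM homeodomain factors of motor and sensory neurons, Pou4f1 is a POU domain factor of sensory neurons, and Nhlh1 and Nhlh2 are helix-loop-helix factors of cells that have just become neurons. Isl1 is also made outside neurons, among others in the pharyngeal region and the developing pituitary.

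Helix-loop-helix factors bind the E-box, CANNTG, which reads the same on both strands. The region from 250 bases before to 50 bases after the start of transcription is in the RefSeq promoter table (assembly GRCm38.p6, a later build than the mm9 named for the arrays) for 9 of the 10 genes, at 13 starts. Stmn2 is not among them. Of these 9 genes, 6 had a CANNTG at 1 start or more, and 3 (Tubb3, Dcx and Isl2) had none at any listed start. Among 32851 promoters of the same length, 72.3% held 1 or more and 39.6% held 2 or more. The following 4 are shown because their genes had the different patterns described below. Tubb3 was above baseline in neural tissue of every stage. Elavl3 was at 2-fold or above in 12 of 16 neural libraries at E10.5, 3 of 5 at E9.5 and 2 of 13 at E8.5. Isl1 had its highest group means in E10.5 neuroepithelium at the midline and below the nasal prominences, and in E9.5 epidermal ectoderm. Nhlh1 had its highest group mean in the olfactory pit. Capitals mark each CANNTG, and each sequence runs 5′ to 3′ on the strand of its gene.
Tubb3, chr8:123411303-123411602, plus strand: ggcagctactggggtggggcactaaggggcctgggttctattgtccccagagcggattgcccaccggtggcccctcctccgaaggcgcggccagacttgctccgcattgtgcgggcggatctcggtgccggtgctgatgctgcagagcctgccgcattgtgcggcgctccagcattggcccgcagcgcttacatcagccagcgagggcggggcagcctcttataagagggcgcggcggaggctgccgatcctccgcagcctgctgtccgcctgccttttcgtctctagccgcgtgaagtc
Elavl3, chr9:22051974-22052273, minus strand: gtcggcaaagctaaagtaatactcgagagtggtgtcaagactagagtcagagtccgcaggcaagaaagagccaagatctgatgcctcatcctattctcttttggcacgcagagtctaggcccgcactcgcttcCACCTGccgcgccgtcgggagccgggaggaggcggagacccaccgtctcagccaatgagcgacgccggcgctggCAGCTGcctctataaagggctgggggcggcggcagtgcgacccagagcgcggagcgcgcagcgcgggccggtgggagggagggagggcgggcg
Isl1, chr13:116309639-116309938, minus strand: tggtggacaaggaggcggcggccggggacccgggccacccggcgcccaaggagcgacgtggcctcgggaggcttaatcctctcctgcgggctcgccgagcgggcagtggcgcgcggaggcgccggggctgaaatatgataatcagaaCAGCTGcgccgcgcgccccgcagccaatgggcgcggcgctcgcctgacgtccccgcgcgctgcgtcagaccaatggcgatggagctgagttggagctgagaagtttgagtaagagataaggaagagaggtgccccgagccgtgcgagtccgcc
Nhlh1, chr1:172057547-172057846, minus strand: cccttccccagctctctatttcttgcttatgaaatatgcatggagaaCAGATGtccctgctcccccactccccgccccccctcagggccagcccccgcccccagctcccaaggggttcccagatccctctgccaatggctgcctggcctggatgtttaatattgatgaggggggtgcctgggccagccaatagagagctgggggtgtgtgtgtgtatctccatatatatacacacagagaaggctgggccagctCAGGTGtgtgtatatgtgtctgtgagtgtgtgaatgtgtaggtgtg
Elavl3 held 2 E-boxes, Isl1 held 1, Nhlh1 held 2 and Tubb3 held none. A match shows only that these letters are present in this window.

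Across the 22 groups the 10 genes fell into wide and narrow patterns. The span from the lowest to the highest group mean was 6.68 log2 units for Stmn2, the 100th percentile of all genes after rounding, 4.71 for Tubb3 (percentile 99.3), 4.45 for Elavl3 (99.0) and 4.15 for Isl1 (98.4). It was 2.71 for Isl2 (88.2) and 2.08 for Elavl4 (79.0). Dcx, Pou4f1, Nhlh1 and Nhlh2 spanned 0.80, 0.60, 0.56 and 0.26, where the median of all genes was 0.80, so that Dcx equalled it and the others lay below it, at percentiles 41.5, 39.3 and 13.4. When groups were ordered by mean, the libraries of neighbouring groups overlapped for every gene with 1 exception, Nhlh1 in the olfactory pit. There the lowest pit library and the highest of the next group, the E10.5 mandibular arch, were both 0.28 after rounding. Groups further down overlapped the pit: the lateral nasal eminence reached 0.41, E9.5 neuroepithelium 0.36, the control site 0.34 and the medial nasal prominence 0.32.

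**Figure D1:**
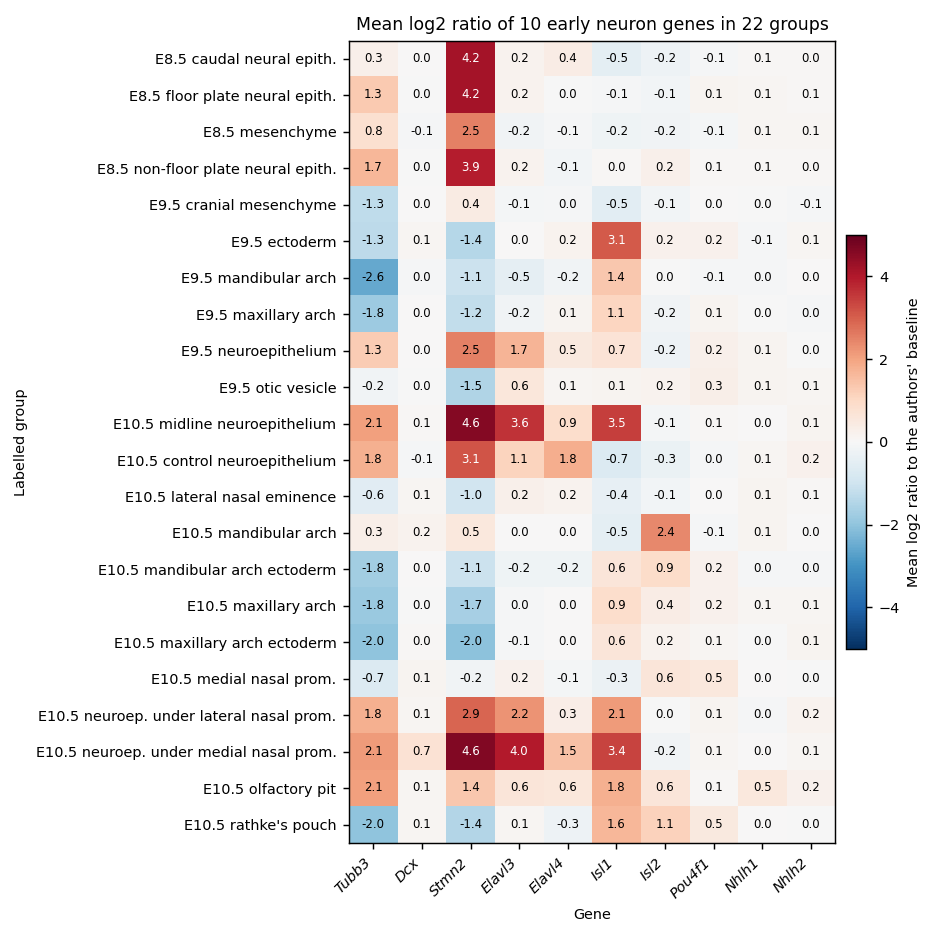
Mean log2 ratio of each of the 10 genes (columns) in each of the 22 groups (rows), relative to the authors' baseline, in colour and as a number. Stmn2 reached 4.64 below the medial nasal prominence at E10.5, while the highest group means of Nhlh1 and Nhlh2 were 0.52 and 0.21, both in the olfactory pit.

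Single libraries with several of these genes high at once came mostly from E10.5 neural tissue. Over all groups, 14 libraries had 4 or more of the 10 genes at 2-fold or above, and 12 of the 14 were neural. Among the 16 E10.5 neural libraries 11 were of this kind, with all 4 from the midline and all 4 from below the medial prominence. Tubb3, Stmn2, Elavl3 and Isl1 were the usual 4. The 2 such libraries from other tissue were replicate 4 of the E9.5 epidermal ectoderm and replicate 2 of the E10.5 olfactory pit.

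Differences were tested with limma, with p-values adjusted over all 19946 genes by Benjamini-Hochberg and called at under 0.05. The first comparison was of stages in the wall of the neural tube, beginning with the cytoskeletal genes. Stmn2 was already high at E8.5. Its log2 ratio was 3.47, 4.45, 4.41 and 4.35 in the floor plate, 3.80, 4.10, 3.96, 3.45 and 4.25 outside it, and 4.44, 4.10, 3.72 and 4.34 in the caudal epithelium. The 5 libraries of E8.5 mesenchyme were lower, at 1.06 to 3.19, and did not overlap the 13 neural libraries, though all were above 2-fold.

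At E9.5 the 5 neuroepithelium libraries had Stmn2 ratios of 1.74, 3.76, 0.96, 2.91 and 3.25, a mean of 2.53 ± 1.15 (SD, n = 5) against 3.91 ± 0.31 (SD, n = 5) in E8.5 epithelium outside the floor plate. The ranges overlapped, and the difference of -1.39 ± 0.84 (SE, 95% interval -3.06 to 0.29, limma adjusted p = 0.77) did not pass. At E10.5 Stmn2 was 4.66, 4.62, 4.36 and 4.70 at the midline, 4.71, 4.63, 4.23 and 4.99 below the medial prominence, 2.60, 3.13, 4.02 and 2.85 at the control site, and 3.07, 4.45, 4.30 and -0.18 below the lateral prominence. The last value stood far below the other 15 E10.5 neural libraries. In all, Stmn2 was at 2-fold or above in 13 of 13 neural libraries at E8.5, 4 of 5 at E9.5 and 15 of 16 at E10.5, against 5 of 5, 3 of 29 and 6 of 34 of the other libraries.

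Tubb3 followed Stmn2 in most groups, with a narrower rise above baseline and wide falls below it. Outside the floor plate at E8.5 it was 1.96, 1.75, 1.72, 1.53 and 1.38, and in the floor plate 0.69, 1.18, 1.65 and 1.67. The caudal epithelium was low, at 0.11, 0.25, 0.41 and 0.29, below every library of the other neural groups of that stage, although Stmn2 was as high there as elsewhere. In E9.5 neuroepithelium Tubb3 was 0.93, 1.70, 0.77, 1.78 and 1.20, and the 16 E10.5 neural libraries lay between 0.92 and 2.42, with 15 at 2-fold or above. Among the other tissues the lowest value was -4.72, in a widely spread array of E9.5 epidermal ectoderm.

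Dcx reached 2-fold in 2 libraries of the series. Both were from below the medial nasal prominence at E10.5, where the 4 values were 0.08, 1.15, 0.20 and 1.53. Outside that group the highest value was 0.44 and the lowest -0.18.

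The RNA-binding genes were near baseline in most E8.5 libraries. Elavl3 was at 2-fold in 2 of 13 neural libraries of that stage, at 1.01 in the floor plate and 1.54 outside it, and the other 11 were between -0.29 and 0.72. In E9.5 neuroepithelium it was 2.79, 3.32, -0.19, 0.75 and 1.86, so that 3 of 5 libraries passed 2-fold and 1 was at baseline. The difference from E8.5 was 1.55 ± 0.53 (SE, 95% interval 0.50 to 2.59) and did not pass (limma adjusted p = 0.18), while it did without replicate 3 of the E9.5 group (2.02, adjusted p = 0.046) and after quantile normalization (1.94, adjusted p = 0.044). None of the 10 genes was called between E8.5 and E9.5, where limma called 1.06% of all genes. Red blood cell genes moved with this stage step: 3 of 6 measured were called higher at E9.5, and their mean per library was -3.43 to -2.43 at E8.5 outside the floor plate and -1.07 to 0.11 in E9.5 neuroepithelium. Their part in the differences was not tested.

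Elavl4 was the gene called between E9.5 neuroepithelium and the E10.5 control site, with the higher values at the control site. It was 0.13, 0.01, 0.54, 1.38 and 0.36 at E9.5 and 2.17, 0.75, 2.21 and 2.18 at E10.5, where 3 of 4 libraries lay above all E9.5 libraries and the other was within their range. The difference was 1.34 ± 0.27 (SE, 2.53-fold, limma adjusted p = 0.0017). This was the 1 call among the 10 genes, against 0.426% of all genes in either direction. The E9.5 label names no site within the neuroepithelium, so stage and site cannot be told apart here. The Elavl4 mean in E9.5 neuroepithelium was 0.48. At the other E10.5 sites it was 1.46 below the medial prominence, 0.89 at the midline and 0.32 below the lateral prominence. Elavl4 kept its call without each single library. When only these 9 libraries were fitted, without the spread of the other groups, it did not pass (adjusted p = 0.42). Of the 18 calls for these genes over all comparisons, 5 held in such fits: Isl1 at the midline, and Stmn2, Elavl3, Isl1 and Tubb3 between neuroepithelium and nasal prominences.

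Other genes of neurogenesis differed in the same comparison, with the same limit of stage and site. Of 9 measured proneural genes, 2 were higher at the control site and none lower: Neurod1 by 2.86 ± 0.55 (SE, limma adjusted p = 0.00086) and Neurog2, which starts neurogenesis in many progenitors, by 2.15 ± 0.29 (adjusted p = 4.1e-07). Of 28 other neuron genes 0 passed here, and of 10 progenitor genes 1 was higher, Pax6, by 3.54 ± 0.70 (adjusted p = 0.0017). Pax6 had means of 4.77 at the control site and -0.46 at the midline of the same stage. The median difference was 0.19 for the proneural genes, 0.00 for the other neuron genes and -0.05 for the 10 listed genes, beside -0.01 for all genes. Whether the Elavl4 difference between E9.5 neuroepithelium and the E10.5 control site exceeded a stage difference outside neural tissue was tested too. The latter was the mean of the E10.5 lateral nasal eminence and medial nasal prominence minus E9.5 cranial mesenchyme. Its 2 sides differ in region as well as stage. This difference of differences was 1.25 ± 0.34 (SE, limma adjusted p = 0.075) and did not pass. It passed without replicate 4 of the E9.5 neuroepithelium (1.47, adjusted p = 0.029), without replicate 2 of the E10.5 control site (1.61, adjusted p = 0.0092) or without replicate 3 of the lateral nasal eminence (1.31, adjusted p = 0.038). No listed gene was called in that comparison, where 0.296% of all genes were.

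**Figure D2:**
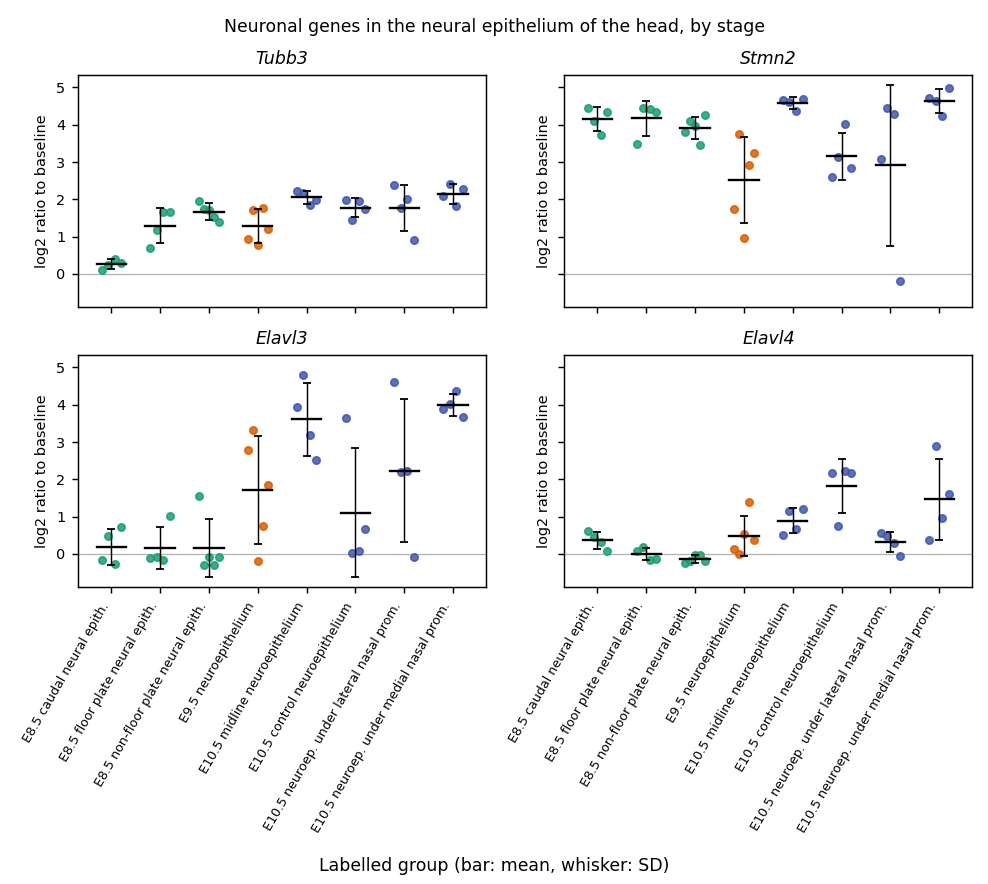
Log2 ratios of Tubb3, Stmn2, Elavl3 and Elavl4 in each library (points) of the 8 neural groups, coloured by stage (green E8.5, orange E9.5, blue E10.5), with the group mean (bar) and SD (whisker). Stmn2 lay between 3.45 and 4.45 in all 13 neural libraries at E8.5, whereas Elavl3 reached 2-fold in 2 of them.

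Within E10.5 neuroepithelium, the midline had more Isl1 and Elavl3 than the control site. At the midline Isl1 was 4.17, 3.69, 2.59 and 3.42, and at the control site -0.80, -0.80, -0.35 and -0.77, the lowest group mean for this gene in the series. No library of one site came near those of the other. The difference was 4.15 ± 0.84 (SE, 17.7-fold, limma adjusted p = 0.0021), and it was called in every fit that left out 1 library (3.91 to 4.44) and in the fit of the 8 libraries alone.

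Elavl3 differed in the same direction. It was 3.93, 4.80, 3.20 and 2.52 at the midline and 3.65, 0.03, 0.09 and 0.66 at the control site, where replicate 1 was within the midline range and the other 3 were below it. The difference was 2.50 ± 0.59 (SE, 5.66-fold, limma adjusted p = 0.017). The Elavl3 call ended after quantile normalization (2.34, adjusted p = 0.089), without midline replicate 1 or 2 (adjusted p = 0.061 and 0.19) and without control replicate 2, 3 or 4 (0.16, 0.14 and 0.083). Isl1 and Elavl3 were the 2 of 10 genes called between these sites, against 0.471% of all genes.

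Elavl4 had its mean on the other side. It was 0.52, 1.14, 0.68 and 1.21 at the midline, below 3 of the 4 control libraries, a difference of -0.94 ± 0.28 (SE) that did not pass (limma adjusted p = 0.15). Without control replicate 2, whose Elavl4 was 0.75, it was -1.30 and passed (adjusted p = 0.0073). Stmn2 at the midline was above all control libraries but its difference, 1.43 ± 0.94 (SE, 95% interval -0.44 to 3.30, adjusted p = 1), was within the error. Of 9 proneural genes 1 was higher and 2 were lower at the midline, and of 10 progenitor genes 1 was higher and 1 lower. Neurog2 and Neurod1 were lower at the midline, by -3.06 ± 0.30 and -2.67 ± 0.57 (adjusted p = 3.6e-12 and 0.0049), and Olig2 was higher by 2.20 ± 0.38 (adjusted p = 0.00016). The progenitor gene Pax6 was lower by -5.23 ± 0.74 (adjusted p = 1.3e-06), and Hes5, a Notch target of progenitors, was higher by 1.95 ± 0.45 (adjusted p = 0.011). Of the 28 other neuron genes none passed.

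Below the nasal prominences the same question was asked with 8 libraries against the 4 of the control site. Isl1 was 3.11, 4.10, 2.80 and 3.40 below the medial prominence and 2.99, 3.29, 0.64 and 1.61 below the lateral one, all above the control libraries. The difference was 3.42 ± 0.73 (SE, 10.7-fold, limma adjusted p = 0.0063), and with the lateral libraries alone it was 2.81 and did not pass (adjusted p = 0.23). Dcx was called too, by 0.48 ± 0.11 (SE, 1.39-fold, adjusted p = 0.011), which rested on the 2 high medial libraries: the call ended without medial replicate 2 or 4 (adjusted p = 0.059 and 0.071), without control replicate 1 or 4 (0.052 and 0.07), and with the lateral libraries alone, where Dcx differed by 0.15 (adjusted p = 0.92). It ended also with the 4 libraries of conflicting labels counted as lateral (0.48, adjusted p = 0.064). These were the 2 of 10 genes called, against 0.296% of all genes.

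The Elavl genes again had differences of opposite sign here. Elavl3 was 3.88, 4.03, 4.37 and 3.66 below the medial prominence, among the highest values of the series, and 4.61, 2.20, 2.22 and -0.09 below the lateral one, a difference from the control site of 2.00 ± 0.51 (SE, 95% interval 0.98 to 3.02) that missed the threshold (limma adjusted p = 0.059). Elavl3 passed with the medial libraries alone (2.88, adjusted p = 0.0035), without control replicate 1 (2.85, adjusted p = 0.00057) or without lateral replicate 4 (2.39, adjusted p = 0.0041). Elavl4 was 0.38, 2.89, 0.96 and 1.61 below the medial and 0.57, 0.47, 0.29 and -0.05 below the lateral prominence, a difference of -0.94 ± 0.24 (SE, adjusted p = 0.067). With the lateral libraries alone, which all lay below the control libraries, the Elavl4 difference was -1.50 and passed (adjusted p = 0.0011). It also passed with array weights (-0.95, adjusted p = 0.046), without control replicate 2 (-1.29, adjusted p = 0.0018) and without medial replicate 2 (-1.17, adjusted p = 0.00092).

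**Figure D3:**
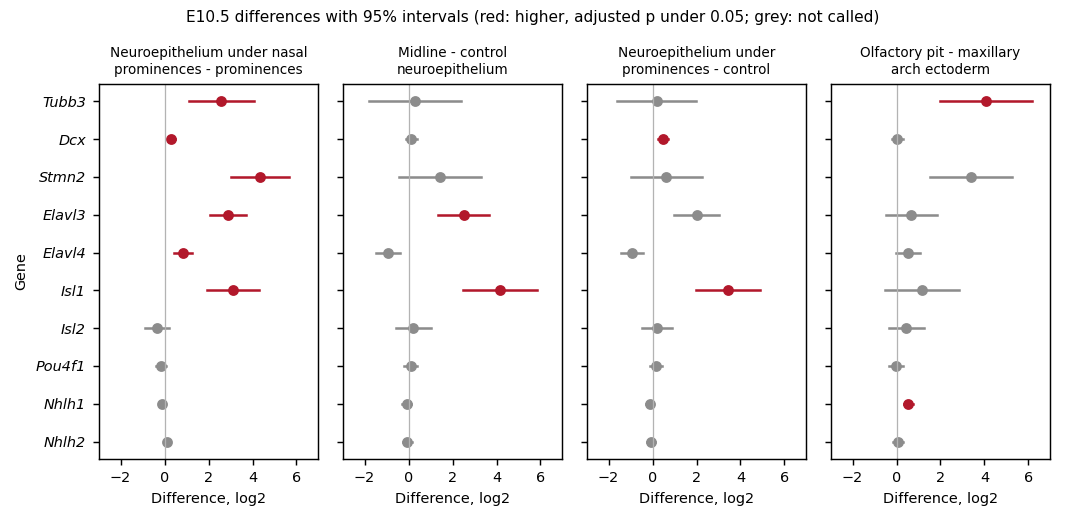
Difference in log2 ratio with its 95% interval from the limma fit (horizontal axis) for each of the 10 genes in 4 comparisons at E10.5. Points in red passed at adjusted p under 0.05 and those in grey did not. Isl1 was 4.15 higher at the midline than at the control site, while the interval for Elavl4 there ran from -1.49 to -0.38.

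Against the nasal prominences beside it, which consist mainly of mesenchyme, neuroepithelium had 6 of the 10 genes higher and none lower, with 20.9% of all genes called in either direction and 14.9% called higher. The median difference was 0.57 over the 10 genes and 0.05 over all genes. Stmn2, whose neural values are given above, was -2.12, -2.05, 2.32 and -1.99 in the lateral nasal eminence and 0.39, -1.47, 1.78 and -1.33 in the medial nasal prominence. Of the 8 neural libraries 7 were above all of these, and lateral neural replicate 4, at -0.18, was among them. The Stmn2 difference was 4.33 ± 0.67 (SE, 20.2-fold, limma adjusted p = 1.6e-06). Elavl3 differed by 2.89 ± 0.42 (7.41-fold, adjusted p = 3.5e-07) and Isl1 by 3.10 ± 0.60 (8.57-fold, adjusted p = 0.00012). Isl1 had no overlap: its lowest neural library was at 0.64 and its highest prominence library at 0.29.

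Tubb3, Elavl4 and Dcx were the other 3. Tubb3 was 0.92 to 2.42 in the neural libraries and -4.24 to 1.54 in the prominences, a difference of 2.58 ± 0.74 (SE, limma adjusted p = 0.0092). The lowest Tubb3 value belonged to a widely spread array, medial nasal prominence replicate 2. Without that array the difference was 1.99 and did not pass (adjusted p = 0.059). The Tubb3 call was also lost after quantile normalization (1.73, adjusted p = 0.054) and without all widely spread arrays (1.72, adjusted p = 0.098). Elavl4 differed by 0.84 ± 0.20 (adjusted p = 0.0016) and kept its call without each single library. Dcx differed by 0.31 ± 0.09 (adjusted p = 0.0072), and by 0.18 (adjusted p = 0.077) without medial neural replicate 4. Dcx also missed the threshold after quantile normalization, at 0.20 (adjusted p = 0.072).

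Many other genes of neurons and their progenitors differed in the same comparison. Of the 28 other neuron genes 14 were higher and 1, Ebf3, was lower, with a median difference of 0.39. The largest were Ina (an intermediate filament protein of young neurons), at 4.27 ± 0.55 (SE, limma adjusted p = 1.3e-08), Stmn3, a relative of Stmn2, at 3.95 ± 0.45 (adjusted p = 2.3e-10), and Gng3, at 3.33 ± 0.56 (adjusted p = 1e-05). Of 9 proneural genes 4 were higher and 1 lower, of 10 progenitor genes 5 were higher and 1 lower, and of 12 Notch pathway genes 5 were higher and 3 lower. Fabp7 and Sox2, genes of neural progenitors, were higher by 6.16 ± 0.74 and 5.16 ± 0.56 (adjusted p = 1.5e-09 and 9.8e-11). Of 10 mesenchyme genes 7 were lower and none higher. The motor neuron list (7 genes) and the list of the first cortical neurons (6 genes) had no member called.

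At E9.5 the matching comparison, of neuroepithelium with cranial mesenchyme, called none of the 10 genes, against 1.15% of all genes. Elavl3 in mesenchyme was -0.39 to 0.15 (median -0.09, n = 6), which 4 of 5 neural libraries exceeded, and its difference of 1.80 ± 0.50 (SE, 95% interval 0.80 to 2.81) missed the threshold narrowly (limma adjusted p = 0.051). Elavl3 passed without neuroepithelium replicate 3 (2.28, adjusted p = 0.0079), without replicate 4 (2.04, adjusted p = 0.034) and after quantile normalization (2.03, adjusted p = 0.024). Tubb3 was above all 6 mesenchyme libraries, which ranged from -3.75 to 0.18, and differed by 2.55 ± 0.90 (adjusted p = 0.24). After quantile normalization the Tubb3 difference was 2.69 and passed (adjusted p = 0.045). Stmn2 differed by 2.12 ± 0.81 (adjusted p = 0.33), with 5 of 6 mesenchyme libraries at or above 0.00 and the highest at 2.19. Isl1 was above all mesenchyme libraries as well, by 1.22 ± 0.72 (adjusted p = 0.84). Of the 28 other neuron genes 3 were higher in neuroepithelium: Ina, Stmn3 and Rbfox3.

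Outside the neural tube Isl1 was high in most libraries of E9.5 epidermal ectoderm. In the 7 libraries it ran from -0.54 to 4.71 with a median of 4.38: 5 libraries lay at 4.05 to 4.71 and the other 2, replicates 6 and 7, at -0.42 and -0.54. Surface ectoderm genes had means of 1.31 to 1.88 in the 5 high libraries, 1.27 in replicate 6 and 0.50 in replicate 7, a widely spread array. Replicate 6 was also below the 5 high libraries in Rathke's pouch genes (0.84 against 1.26 to 2.85) and mesenchyme genes (-0.46 against -0.16 to 0.86), where replicate 7, at 1.78 and 0.35, was within their range. The part of these differences in Isl1 was not tested. The E9.5 arches had intermediate Isl1, at 1.90, 0.70, 0.66, 1.82 and 1.68 in the mandibular and 0.30, 2.23, 0.86, 0.90 and 1.05 in the maxillary arch.

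Isl1 was higher in the ectoderm than in the arches by 1.85 ± 0.59 (SE, 3.06 ± 2.43 against 1.21 in the mean of the arches, limma adjusted p = 0.011). It was the 1 listed gene of 10 called there, where 37% of all genes were called, so the count was below the background. Tubb3 differed by 0.91 ± 0.73 and passed after quantile normalization (2.29, adjusted p = 0.0066) and with array weights (1.58, adjusted p = 0.043). Between the mandibular and maxillary arches of E9.5 no listed gene was called, against 0.0702% of all genes.

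The otic vesicle, the placode of the inner ear, had lower Isl1 than the ectoderm. Its 6 libraries lay at -0.45 to 0.98 with a median of 0.08, all below the 5 high ectoderm libraries. Ectoderm replicate 6, at -0.42, lay within the otic range and replicate 7, at -0.54, below it. The difference was -2.93 ± 0.66 (SE, limma adjusted p = 0.018), the 1 call among the 10 genes, against 0.391% of all genes. This call was lost when only the compared groups were fitted. Otic replicates 3 and 5 had mean log2 ratios of -0.05 and -0.46 over 7 otic genes, where the other 4 had 0.93 to 2.58. Without both of them the Isl1 difference was -2.74 and the call ended (adjusted p = 0.05, above the threshold before rounding), as it did when ectoderm replicate 1 was left out (-2.66, adjusted p = 0.052) or replicate 2 (-2.67, adjusted p = 0.059). In otic replicate 6 alone Elavl3 was at 3.50 and Tubb3 at 1.89, while the other 5 had Elavl3 at -0.13 to 0.17. The mean of 9 proneural genes was also highest in that library, 0.95 against 0.00 to 0.42.

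**Figure D4:**
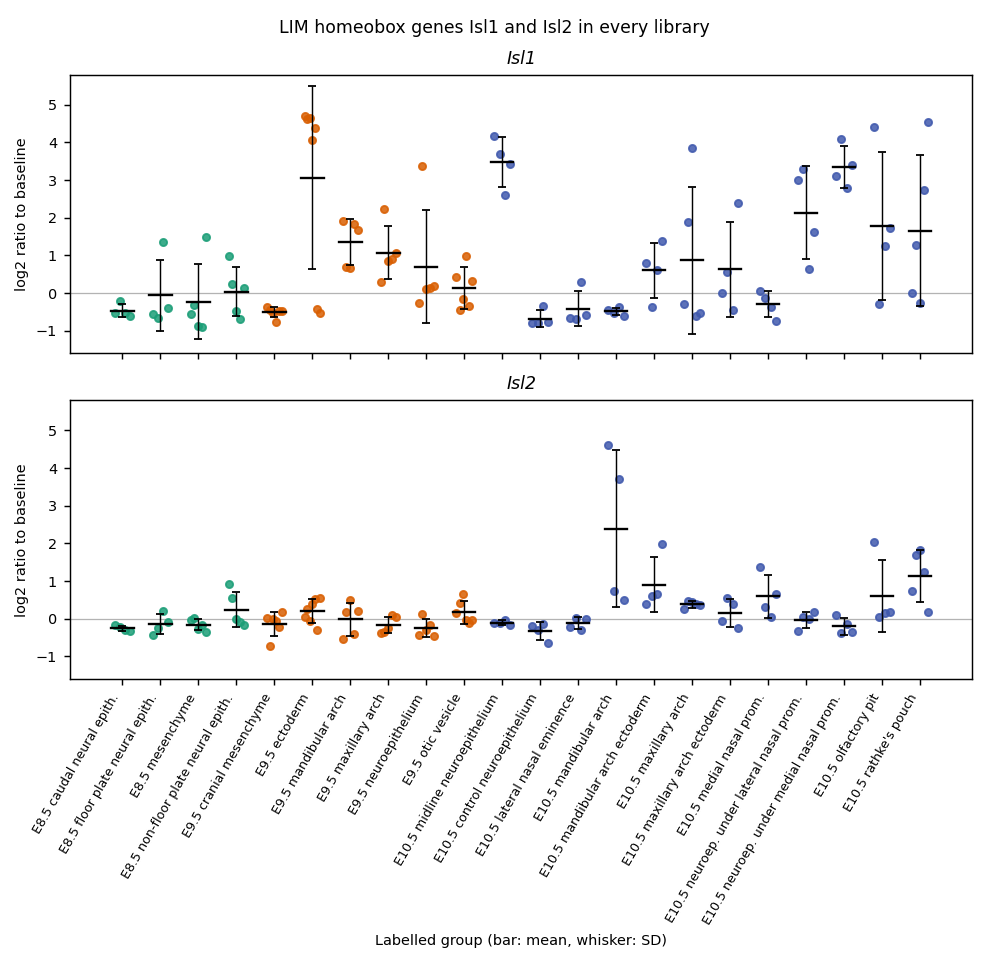
Log2 ratio of Isl1 (upper panel) and Isl2 (lower panel) in each library (points) of the 22 groups, coloured by stage (green E8.5, orange E9.5, blue E10.5), with the group mean (bar) and SD (whisker). Isl1 was at 4.05 to 4.71 in 5 of 7 libraries of E9.5 epidermal ectoderm, and Isl2 was highest in replicates 1 and 3 of the E10.5 mandibular arch, at 4.61 and 3.71.

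The olfactory pit, where the first olfactory neurons form, was compared at E10.5 with maxillary arch epidermal ectoderm and with Rathke's pouch. Tubb3 was 2.23, 2.39, 2.26 and 1.35 in the pit, -3.49, -0.13, -3.23 and -1.25 in the ectoderm, and -3.92, -2.62, 1.63, -3.29 and -1.96 in the pouch. The pit lay above all ectoderm libraries and overlapped 1 pouch library, replicate 3. The differences were 4.08 ± 1.05 (SE, limma adjusted p = 0.04) and 4.09 ± 1.00 (adjusted p = 0.024).

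Both Tubb3 calls were near the threshold. Against ectoderm the call ended without pit replicate 1, 2 or 3 or ectoderm replicate 1 or 3 (3.59 to 4.02, adjusted p = 0.077 to 0.15) and after quantile normalization (3.29, adjusted p = 0.077). Against the pouch it ended without pit replicate 1, 2 or 3, without pouch replicate 1, 2 or 4 (3.61 to 4.03, adjusted p = 0.06 to 0.1), after quantile normalization (3.02, adjusted p = 0.15) and without the widely spread arrays (3.47, adjusted p = 0.13).

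Nhlh1 was 0.28, 0.73, 0.58 and 0.48 in the olfactory pit, -0.11, -0.12, 0.01 and 0.14 in maxillary arch ectoderm and 0.00, 0.15, 0.11, 0.06 and -0.15 in Rathke's pouch. The pit libraries stood above all of both other groups, by a small amount. Nhlh1 was higher than in ectoderm by 0.54 ± 0.09 (SE, 95% interval 0.35 to 0.73, limma adjusted p = 0.0011) and than in the pouch by 0.48 ± 0.09 (adjusted p = 0.00076), and kept both calls without each single library. The 2 comparisons share the pit libraries. Tubb3 and Nhlh1 were the 2 of 10 listed genes called in each, against 0.692% and 0.612% of all genes.

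Stmn2 divided the olfactory pit libraries. Replicates 2 and 3 had 4.43 and 3.97, as high as neural tissue, and replicates 1 and 4 had -1.05 and -1.91, far below them. The ectoderm libraries were at -2.25 to -1.85. The Stmn2 difference from ectoderm, 3.40 ± 0.94 (SE, 95% interval 1.52 to 5.27), did not pass (limma adjusted p = 0.065), and without pit replicate 1 or 4 it did (4.20 and 4.49, adjusted p = 0.026 and 0.0088). From the pouch it differed by 2.81 ± 0.89 (adjusted p = 0.12), and passed without pit replicate 4 (3.90, adjusted p = 0.021) or pouch replicate 3 (3.21, adjusted p = 0.035). Over the 28 other neuron genes the mean was 1.15 and 0.37 in replicates 2 and 3 and -0.24 and -0.16 in replicates 1 and 4. Surface ectoderm genes were lower in replicates 2 and 3 (1.5 and 1.27) than in replicates 1 and 4 (2.02 and 1.80), and so were Rathke's pouch genes (0.05 and 0.67 against 0.99 and 1.59) and mesenchyme genes (-0.24 and -0.24 against 0.16 and -0.08). The part of these other tissues in the Stmn2 values was not tested.

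Among other lists 1 proneural gene, Neurog1, which starts neurogenesis in placodes, was higher in the pit than in ectoderm (2.08 ± 0.49, SE, limma adjusted p = 0.019) and than in the pouch (1.83 ± 0.47, adjusted p = 0.034). Of the 28 other neuron genes 1, Rtn1, passed against ectoderm (3.57 ± 0.88, adjusted p = 0.032) and none against the pouch. Of 6 olfactory placode genes 1 was higher in the pit than in ectoderm and 2 than in the pouch. Of 7 motor neuron genes 2, Lhx3 and Lhx4, were lower in the pit than in the pouch (-1.74 ± 0.20 and -1.02 ± 0.20, adjusted p = 3.9e-09 and 0.0013), and so were 3 of 5 Rathke's pouch genes, Hesx1, Six6 and Lhx3, which is in both lists. Of 10 mesenchyme genes 1, Twist1, was lower in the pit than in ectoderm (-2.81 ± 0.70, adjusted p = 0.033).

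**Figure D5:**
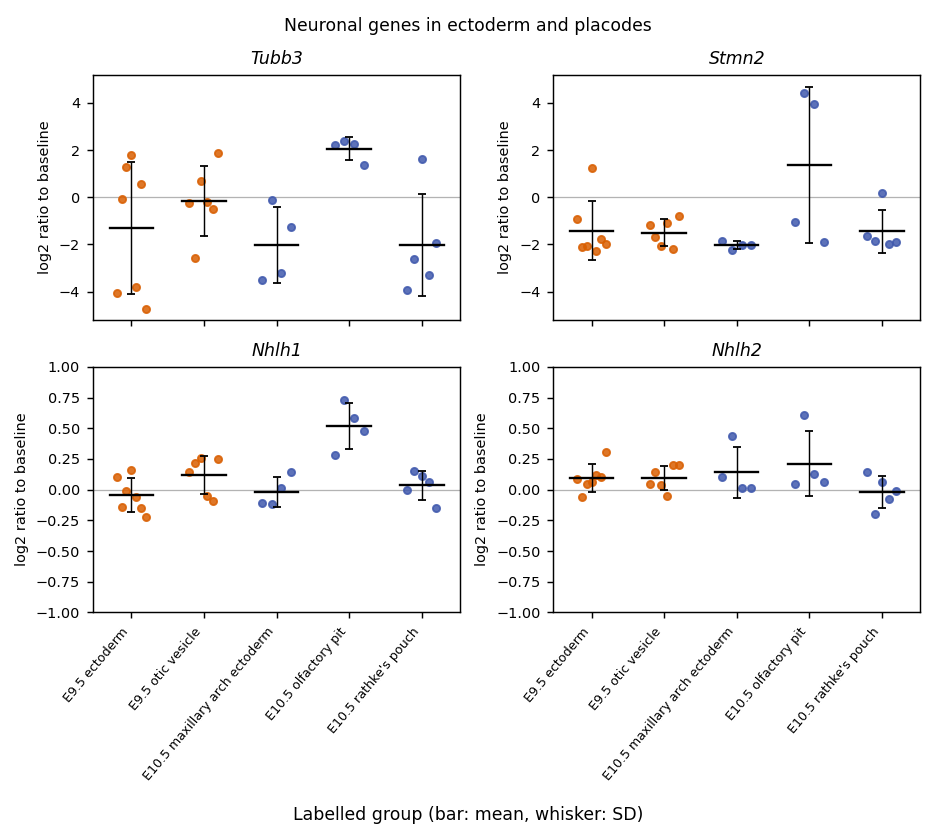
Log2 ratios of Tubb3, Stmn2, Nhlh1 and Nhlh2 in each library (points) of ectoderm and placode groups (orange E9.5, blue E10.5), with the group mean (bar) and SD (whisker). The vertical scale of the lower panels is narrower. Nhlh1 was 0.28 to 0.73 in the olfactory pit, above maxillary arch ectoderm and Rathke's pouch, and Stmn2 was at 4.43 and 3.97 in 2 pit libraries and at -1.05 and -1.91 in the others.

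Rathke's pouch itself had no listed gene called against maxillary arch ectoderm, with 1.63% of all genes called. The LIM homeobox genes varied among its libraries. Isl1 was 0.00, 1.27, -0.27, 2.74 and 4.53, a range as wide as that of the olfactory pit (4.41, -0.29, 1.26 and 1.73). Isl2 was 0.74, 1.70, 1.82, 1.23 and 0.19, 3 of 5 libraries at 2-fold or above, and its difference from ectoderm was 0.98 ± 0.37 (SE, 95% interval 0.24 to 1.72, limma adjusted p = 0.17). Rathke's pouch genes had means of 2.95 to 3.64 in all 5 libraries, above all other groups of the series. Pou4f1 separated from ectoderm in no test, but without pouch replicate 3 it was lower in the pit than in the pouch by -0.50 (adjusted p = 0.049).

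Isl2 had its highest values of the series in 2 libraries of the E10.5 mandibular arch. The 4 libraries had 4.61, 0.73, 3.71 and 0.51, and those labelled maxillary arch 0.25, 0.47, 0.44, 0.39 and 0.36. All mandibular libraries were above the maxillary ones, narrowly in replicates 2 and 4. The difference was 2.01 ± 0.37 (SE, 4.02-fold, limma adjusted p = 0.00079), the 1 call of 10 genes against 0.772% of all genes.

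The 2 high Isl2 libraries were widely spread arrays, with an SD over all probe sets of 0.93 and 0.86. Without the widely spread arrays Isl2 differed by 0.24 and did not pass (adjusted p = 0.84), and array weights gave 0.64 (adjusted p = 0.24). The call ended also after quantile normalization (1.46, adjusted p = 0.058) and without mandibular replicate 1 (1.27, adjusted p = 0.063). The 2 kinds of library differed in other listed genes in the opposite direction. Tubb3 was -0.88 and -1.33 in replicates 1 and 3 and 2.10 and 1.26 in replicates 2 and 4, and Stmn2 was -1.98 and -2.06 against 3.96 and 2.15.

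Replicates 2 and 4 of the mandibular arch were unusually alike, with a root mean square difference over genes of 0.327 where the median pair of the group had 0.914. With their mean counted as 1 library, Isl2 differed by 2.60 (limma adjusted p = 4e-06). That fit gives more weight to the widely spread replicates 1 and 3, where Isl2 was high. It therefore cannot show whether the call rests on them. Over the neural crest and early glia genes replicates 2 and 4 had means of 0.91 and 0.58, against -0.32 and -0.33 in replicates 1 and 3. Among other lists they were also higher in mesenchyme genes (1.83 and 1.85 against 0.80 and 1.47) and surface ectoderm genes (0.63 and 0.31 against -0.05 and -0.19). Higher in them too were the other neuron genes (0.64 and 0.36 against -0.33 and -0.34) and neural progenitor genes (0.16 and -0.06 against -0.48 and -0.74). They were lower in motor neuron genes (-0.06 and -0.09 against 0.19 and 0.21) and first cortical neuron genes (-0.09 and -0.19 against 0.18 and 0.08). The part of these differences in the listed genes was not tested. With array weights Tubb3 and Stmn2 were called higher in the mandibular arch in place of Isl2 (3.49 and 4.42, adjusted p = 0.0053 and 2e-04), and without the widely spread arrays Stmn2 was (4.66, adjusted p = 0.025). In the latter fit the mandibular arch was represented by the unusually alike replicates 2 and 4 only. With no weights and all arrays Tubb3 and Stmn2 differed by 2.13 ± 1.00 and 2.18 ± 0.89 (adjusted p = 0.41 and 0.32). Between the libraries labelled mandibular and maxillary arch epidermal ectoderm no listed gene was called, against 1.31% of all genes, and Isl2 differed by 0.75 ± 0.39 (adjusted p = 0.42). Replicates 1 and 3 of the mandibular ectoderm libraries were the closest pair within any group, at 0.214 against a group median of 0.714. With their mean counted as 1 library, Isl2 differed by 0.88 (adjusted p = 0.41).

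The sensory neuron factor Pou4f1 and Nhlh2 gave little signal in these tissues. Pou4f1 reached 2-fold in 2 libraries, at 1.17 in the medial nasal prominence and 1.02 in Rathke's pouch, and its highest group means were 0.53 ± 0.48 (SD, n = 4) and 0.47 ± 0.43 (SD, n = 5) in those groups. Nhlh2 reached 2-fold in no library and had its highest, 0.62, in a library labelled maxillary arch. Its group means lay between -0.05 and 0.21. With no detection call, a value near the baseline does not tell a gene that is silent everywhere from one that is equal everywhere.

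The group means of the neuronal genes went up and down together to different degrees. Over the 22 groups, Pearson's r was 0.87 between Tubb3 and Stmn2, 0.72 between Elavl3 and Elavl4, 0.67 and 0.62 between Elavl3 and Tubb3 or Stmn2, and 0.62 between Elavl3 and Isl1. Isl1 had 0.13 with Tubb3 and 0.09 with Stmn2, and Isl2 had -0.21 and -0.35 with them. These are descriptions: the genes were read on the same arrays, and groups of 1 stage are not independent.

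By the same measure the genes most like Stmn2 were Ina (0.94), Gnptg (0.90) and Stmn3 (0.90), and most like Tubb3 were Ina (0.89), Stmn3 (0.88) and Ccdc149 (0.83). Elavl3 was most like Glyctk (0.95), Mt3 (0.94) and Ttc9b (0.94), and Elavl4 most like Ap3m2 (0.93), Ttyh1 (0.91) and Muc1 (0.88). The genes most like Isl1 were Dlk1 (0.81), Sytl5 (0.80) and Shisa3 (0.74). For Dcx they were Plaat1 (0.95), St18 (0.90) and Cplx1 (0.90), for Isl2 P2ry6 (0.88), Acr (0.88) and Rilp (0.87), and for Nhlh1 Sult1e1 (0.88), Gal (0.87) and Acsm4 (0.85). Pou4f1 was most like Cd8b1 (0.87), Txk (0.86) and Ttll13 (0.86), and Nhlh2 most like Aifm3 (0.75), Ypel5 (0.73) and Slc45a3 (0.70).

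Like Stmn2, Ina was already high at E8.5, the first stage sampled: outside the floor plate it was at 3.60 ± 0.49 (SD, n = 5), with 2.38 ± 1.25 (SD, n = 5) in E9.5 neuroepithelium and 2.88 ± 0.99 (SD, n = 4) at the E10.5 midline. Of the 28 other neuron genes, 5 had a mean at 2-fold or above outside the floor plate at E8.5 (Crmp1, Gng3, Ina, Nefl and Stmn3), and 8 at the E10.5 midline. Tagln3 was among the latter, at 3.17 ± 0.23 (SD, n = 4), and was at -0.35 ± 1.53 (SD, n = 5) at E8.5.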

How the data were processed

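RNA of laser-captured tissue (extracted with a Zymo kit, amplified and biotin-labelled, per the labels' protocols) was read on Affymetrix whole-transcript arrays. RMA normalization and the mm9 build are named in the submitters' processing notes. The authors deposited a linear ratio per probe set. Over 21 of the 103 samples each probe set's median ratio was 1 within 6e-08, a baseline the labels do not describe. Of 35557 probe sets, 6701 held no value. Log2 ratios of the probe sets with 1 gene symbol (21797) were used, the one with the highest mean where a gene had several (999 genes), giving 19946 genes.

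Group means over 22 groups were fitted with limma 3.58.1 in R 4.3.3 (lmFit and eBayes, 80 residual degrees of freedom) for 14 comparisons and 1 difference of comparisons, after a test on simulated data. The design had named log2 values as the deposited unit. All 10 listed genes are described. Other genes named are those called in 17 lists, led by the largest differences, and the 3 genes most like each listed gene by Pearson's r over group means. The members and lists were chosen with earlier results of these data known. Alternatives were weighting of arrays, quantile normalization, averaging of a gene's probe sets, a robust prior with variance trend, arrays with an SD over 0.85 left out, compared groups alone with and without the replicate number as a block, the conflicting labels taken the other way, and each library left out. Fits with the lateral or medial libraries alone, without otic replicates 3 and 5, and with like mandibular libraries averaged were added after seeing the data.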

Additional observations from a re-analysis of the deposited data

Results flagged for a closer look

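In 220 sets of libraries (10 genes in 22 groups) the highest or lowest library was compared with the rest by Dixon's gap ratio at 95%, and in 25 sets 1 library stood apart. Chance alone would set apart about 1 in 20 sets.

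Replicate 3 of the E10.5 lateral nasal eminence stood apart for 4 genes. It had Stmn2 at 2.32 (others -2.12 to -1.99), Elavl3 at 1.31 (others -0.26 to -0.03), Isl1 at 0.29 (others -0.69 to -0.59) and Nhlh1 at 0.41 (others 0.03 to 0.06). In the same library the mean over neural crest and early glia genes was 0.85, over endothelium genes 1.06 and over other neuron genes 0.36, each the highest of its group. Means over mesenchyme (1.65), surface ectoderm (0.44), neural progenitor (0.19), olfactory placode (0.26) and red blood cell genes (0.77) were also the highest, so many lists were raised. Those over Rathke's pouch (0.03), cranial sensory (-0.07), first cortical (-0.15) and motor neuron genes (-0.21) were the lowest. The part of these differences in the 4 genes was not tested.

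In neural tissue, Stmn2 was low in replicate 1 of the E8.5 floor plate at 3.47, and Elavl3 was high in its replicate 4 at 1.01 and in replicate 1 outside the floor plate at 1.54. Isl1 was high in replicate 3 of the floor plate at 1.35 and in replicate 2 of E9.5 neuroepithelium at 3.37, where the other 4 were at -0.26 to 0.18. At the E10.5 control site, Elavl4 was low in replicate 2 at 0.75 and Isl1 was above the rest in replicate 3 at -0.35.

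In mesenchyme and arches, Dcx was at -0.11 in replicate 1 and Isl1 at 1.49 in replicate 5 of E8.5 mesenchyme, and Isl1 was at -0.77 in replicate 4 of E9.5 cranial mesenchyme. Stmn2 was at 0.96 in replicate 3 of the E9.5 maxillary arch. Replicate 5 of the libraries labelled E10.5 maxillary arch had Stmn2 at -0.56 and Elavl3 at 0.37, and replicate 4 had Nhlh2 at 0.62.

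In ectoderm and placodes, Stmn2 was at 1.22 in replicate 4 of E9.5 epidermal ectoderm and at 0.16 in replicate 3 of Rathke's pouch. Elavl3 was at 3.50 in replicate 6 of the otic vesicle, where the other 5 were at -0.13 to 0.17. In the olfactory pit, Tubb3 was low in replicate 4 at 1.35, Isl2 was high in replicate 1 at 2.05 and Nhlh2 was high in replicate 2 at 0.61. Isl2 was at 1.98 in replicate 4 of the libraries labelled E10.5 mandibular arch epidermal ectoderm.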

How the results depend on the processing

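Of the 18 calls, 12 held after quantile normalization, 17 with array weights, 18 with a variance trend and robust prior, 18 with the mean of probe sets and 15 without widely spread arrays. Without each library in turn (89 fits), 10 of 18 held throughout. The number of the 10 genes called then ranged from 0 to 1 between E8.5 and E9.5, 1 to 2 between midline and control, 1 to 3 between neuroepithelium below the prominences and control, 5 to 6 between it and the nasal prominences, 0 to 1 between E9.5 neuroepithelium and mesenchyme, 0 to 1 between otic vesicle and ectoderm, 1 to 3 between olfactory pit and ectoderm, 1 to 4 between pit and Rathke's pouch, 0 to 1 between the E10.5 arches and 0 to 1 for the difference of stage steps. Quantile normalization called 2 genes between E8.5 and E9.5, 1 between midline and control, 2 between E9.5 neuroepithelium and mesenchyme, 2 between ectoderm and arches, 1 between pit and ectoderm, 1 between pit and pouch and 0 between the E10.5 arches. Array weights called 1 between E8.5 and E9.5, 2 between ectoderm and arches, 2 between the E10.5 arches and 1 for the stage steps. Without widely spread arrays 1 was called between pit and pouch. With conflicting labels counted as lateral, or lateral libraries alone, 1 was called against control, and without otic replicates 3 and 5, 0 were. Compared groups alone called 1 gene between midline and control, and 0 between control and E9.5, below the prominences and control, ectoderm and arches, otic vesicle and ectoderm, pit and ectoderm, pit and pouch, and the E10.5 arches. The cause of these changes was not tested. Fits that leave libraries out also hold fewer libraries, which was not separated from the effect of the libraries removed.

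Replicate numbers showed no regular pairing of the libraries: over 17 pairs of groups, same-numbered deviations correlated at -0.39 to 0.60, and in none were all over 0.1. This check cannot exclude that some libraries share an embryo. With the replicate number as a block in fits of the compared groups alone, 0 of the 18 calls held, and 0 of 10 genes were called in each comparison that had a call. These block fits left out the 4 neuroepithelium libraries counted as medial, so below the prominences only the lateral libraries remained. Dcx differed by -0.02 (limma adjusted p = 0.96) between these and the nasal prominences in the block fit. That fit lacked the medial libraries with Dcx at 1.15 and 1.53, and the part of the block itself in the change was not tested. The files hold no signal over background, so low signals could not be set apart from absent ones.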

Other observations

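One E9.5 sample, titled as mandibular arch and labelled as epidermal ectoderm, belonged to no group. Its log2 ratios were -3.09 for Tubb3, -0.10 for Stmn2, 0.19 for Elavl3, -0.06 for Elavl4, 1.38 for Isl1 and -0.15 for Isl2. Isl1 in this sample lay within the range of the E9.5 mandibular arch (0.66 to 1.90) and between the low and high libraries of epidermal ectoderm.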
